A study of Danio rerio with 20 samples.

Results

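Gene expression in ventricular apexes of zebrafish 7 days after cryoinjury was set against that of non-injured apexes by bulk RNA sequencing. The members were the 4 libraries at 7 dpci (days post cryoinjury) and the 4 libraries of non-injured apexes, 8 of the 20 libraries of the series, chosen by their labels and not by any measured value. All were labelled wild type. The study used adult fish of both sexes and gives an age range for them, but not the sex or age behind each library. The 7 dpci group had been cryoinjured at the ventricle and was collected 7 days later, while the non-injured group had received no cryoinjury. Each library was made from 3 to 4 pooled apexes, so a library is a pool of hearts and not 1 animal. The labels do not say whether the pools of a group came from separate operations or days, and p-values measure the spread between pools. For single loci this spread was estimated within the groups of all 20 libraries, not from these 8 alone. The apex at 7 dpci holds the injury site together with the surrounding myocardium, and in such bulk tissue fewer cells of a type and less RNA per cell cannot be told apart.

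Cryoinjury kills part of the ventricle wall with a cold probe. In zebrafish the dead muscle is first replaced by fibrin and then by collagen-rich scar tissue laid down by fibroblasts and other cells, immune cells clear debris, and cardiomyocytes, endocardium and epicardium near the wound proliferate until new muscle replaces the scar. The first week is commonly described as the passage out of the inflammatory phase into the reparative one.

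The deposited table lists 66128 assembled loci, each under a number with the prefix XLOC. Its column of gene names runs in another order than its values, so no gene is named here, known roles cannot be given, lists of pathway genes could not be counted, and the labelled tissue could not be checked against heart markers. A value is the number of reads counted on a locus divided by a size factor of its library, and is not divided by length. Levels are therefore compared between libraries and not between loci. The reads behind a library, recovered from the steps between its low values, numbered 23541028 to 27529310 at 7 dpci and 24371179 to 26742999 in the non-injured apexes. Depth therefore differed little between the groups.

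How alike the libraries were was described by the median absolute difference in log2(value + 1) over the 32358 loci whose mean value reached 10. This distance lay between 0.25 and 0.45 among the 7 dpci libraries, the largest 3 all involving 7 dpci replicate 4. It was 0.36 to 0.58 between a 7 dpci library and non-injured replicate 1 or 2, and 0.52 to 0.69 between a 7 dpci library and non-injured replicate 3 or 4. Non-injured replicates 3 and 4 were 0.29 apart. Replicates 1 and 2 were 0.45 apart, no closer to each other than to replicates 3 and 4, from which they lay at 0.39 to 0.44. All 7 dpci libraries were thus nearer to non-injured replicates 1 and 2 than to 3 and 4, and how many loci differ depends on which controls are used. For this reason each locus was also tested against the 2 pairs of non-injured libraries in turn. The pairs are not groups in the labels, they were taken over from earlier results of these data, and they share the 7 dpci libraries, so no test was made between them.

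Over the 62594 loci that were read in any of the libraries, 4024 were higher at 7 dpci and 3412 were lower, at an adjusted p below 0.05 (limma on log2(value + 1), 1 model of all 20 libraries, Benjamini-Hochberg adjustment). This is 6.43% of the loci tested in the upward direction and 5.45% in the downward direction, 11.9% together. Against non-injured replicates 1 and 2 alone 1086 loci were higher and 390 lower, and against replicates 3 and 4 alone 6356 were higher and 5317 lower. The adjustment was made within each test, so the same p before adjustment can pass against 1 pair and miss against the other. The values at 7 dpci and in the non-injured apexes did not overlap, 4 libraries against 4, for 4181 loci higher at 7 dpci (6.68% of all) and for 3870 lower (6.18%). A fit of the 8 libraries alone gave 1735 higher and 1316 lower loci. The count of lower loci was 2202 without 7 dpci replicate 2, 2205 without 7 dpci replicate 4, 1656 without non-injured replicate 3 and 1651 without non-injured replicate 4. The count of higher loci was 2325 without non-injured replicate 3 and 2352 without replicate 4. At the threshold itself, the last locus inside it was XLOC_009919, with a mean value of 131 at 7 dpci and 54.1 in the non-injured apexes, and the first outside it was XLOC_008193, with 1237 at 7 dpci and 1793 in the non-injured apexes.

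A change was set apart when a locus passed the threshold in the same direction against replicates 1 and 2 and against replicates 3 and 4. There were 888 such loci higher at 7 dpci (1.42% of those tested) and 331 lower (0.529%), and each of them also passed the test of 4 libraries against 4. The higher loci had a median log2 fold change of 1.99, with quartiles of 1.38 and 2.78, and the median was almost the same against either pair, 1.97 against replicates 1 and 2 and 1.99 against replicates 3 and 4. The lower loci had a median of -2.32 and quartiles of -3.40 and -1.44, with medians of -2.13 and -2.55 against the pairs in the same order. The median over all loci tested was 0. Among the higher loci 813 were raised at least 2-fold, 443 at least 4-fold and 161 at least 8-fold on this scale, and among the lower loci 284, 196 and 117 were reduced to that extent. Because passing the tests chose these loci, their medians describe them and are no further support. With only the 8 libraries in the model 347 higher and 70 lower loci passed against both pairs, and on recovered reads 528 higher loci passed with limma-voom and 586 with edgeR. Leaving out 1 library moved these counts by more than 1.5 times in 3 cases. Without 7 dpci replicate 2 they were 554 higher and 185 lower, without non-injured replicate 1 there were 585 higher, and without non-injured replicate 2 there were 514 higher and 216 lower.

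**Figure D1:**
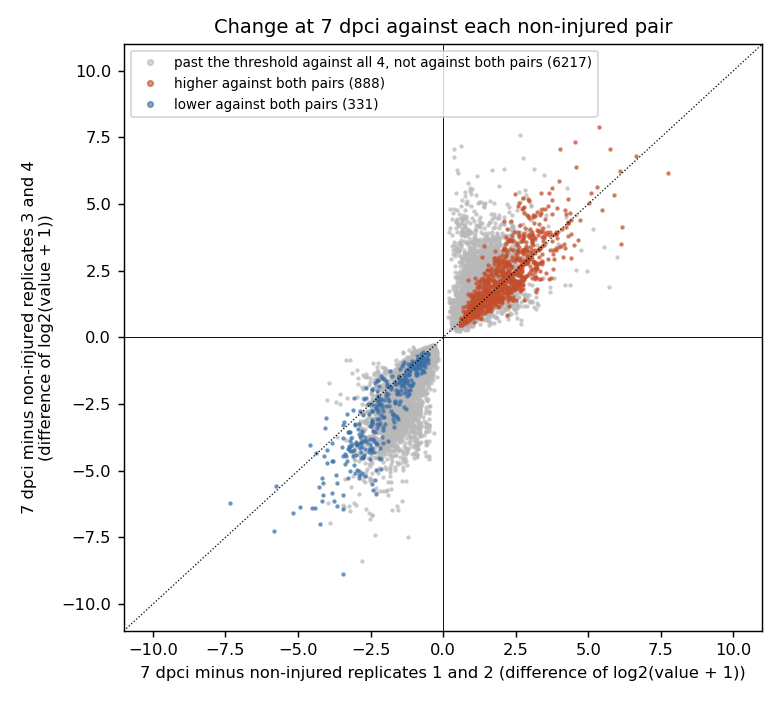
Each point is 1 locus past the threshold, with its log2 fold change at 7 dpci against non-injured replicates 1 and 2 on the horizontal axis and against replicates 3 and 4 on the vertical axis; the dotted line marks equal change. The 888 red and 331 blue loci passed against both pairs and lie around the line, while many grey loci lie farther from 0 on the vertical axis than on the horizontal one.

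The loci that passed the test of all 4 controls but missed against 1 or both of the pairs were less even between the pairs. The 3136 higher ones had a median log2 fold change of 1.20 against replicates 1 and 2 and 1.85 against replicates 3 and 4, and the 3081 lower ones had -1.07 and -1.69. In 64.8% of these higher loci and 62.2% of these lower loci the 7 dpci and non-injured values did not overlap, against 99.1% and 98.8% of the loci set apart. Over all loci tested the share without overlap, in either direction, was 12.9%. The rules that chose the loci make these differences likely, so they are descriptions and no further support.

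The loci set apart were found at every level of abundance except the lowest. None had a mean value below 1 over the 8 libraries. They made up 0.989% of the 22452 loci with a mean of 1 to 10, 2.66% of the 16323 loci from 10 to 100, 3.41% of the 11240 loci from 100 to 1000, and 3.73% of the 4795 loci above that. Rises and falls were spread differently over these classes. Of the higher loci 145 lay in the class from 1 to 10, 305 in the next, 317 in the one from 100 to 1000 and 121 above, while the lower loci numbered 77, 130, 66 and 58 in the same order.

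Together the 888 higher loci took 3.72%, 4.42%, 3.47% and 3.11% of the summed values in the 7 dpci libraries, against 1.05%, 1.09%, 1.04% and 1.03% in the non-injured libraries. The 331 lower loci took 1.23%, 1.08%, 1.30% and 0.994% at 7 dpci, against 1.85%, 1.96%, 2.18% and 2.18% in the non-injured libraries. The groups did not overlap in either share, as the choice of the loci makes likely. Measures of the libraries as wholes did not pass an exact two-sided permutation test of 4 against 4, whose smallest possible p is 0.0286. The number of loci with a value above 0 was 52514 ± 229 at 7 dpci and 51785 ± 1103 in the non-injured apexes (SD, n = 4 each, exact permutation p = 0.257, adjusted over 3 measures 0.257). The share held by the 100 most abundant loci was 23.7% ± 1.22 at 7 dpci and 26.0% ± 2.12 in the non-injured apexes (SD, n = 4 each, exact permutation p = 0.114, adjusted 0.214), and the summed values had p = 0.143 (adjusted 0.214) in the same exact test.

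The largest rise among loci whose mean value reached 100 was at XLOC_039798, whose values were 515, 565, 341 and 266 at 7 dpci, against 2.53, 0, 4.43 and 4.79 in the non-injured apexes. The locus was near the limit of detection in every non-injured library and well above it in every 7 dpci library, a log2 fold change of 6.96 ± 0.50 (SE, limma adjusted p = 1.8e-07). XLOC_028133 had 4365, 4266, 3537 and 3306 at 7 dpci, against 105, 12.8, 27.7 and 39.5 in the non-injured apexes, a change of 6.73 ± 0.48 on the log2 scale (SE, limma adjusted p = 2.67e-07). XLOC_031825 drew more reads than the other 9 of the 10 largest rises, with no allowance for length. It had 14696, 14084, 12409 and 11808 at 7 dpci, against 352, 167, 206 and 45.5 in the non-injured apexes (log2 fold change 6.42 ± 0.50, SE, limma adjusted p = 1.05e-06). In both of these loci the 7 dpci libraries lay within a narrow band and the non-injured libraries were several times farther apart in relative terms.

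XLOC_040406 had values of 532, 255, 169.7 and 262 at 7 dpci, against 11.4, 9.88, 2.22 and 2.39 in the non-injured apexes, a log2 fold change of 5.50 ± 0.50 (SE, limma adjusted p = 2.41e-06). Its non-injured replicates 3 and 4 were the lowest, as they were at XLOC_022434, which had 485, 556, 487 and 267 at 7 dpci, against 53.0, 31.6, 8.86 and 9.58 in the non-injured apexes (4.39 ± 0.45, SE, limma adjusted p = 4.29e-06). XLOC_019783 did not share this order. It had 499, 699, 714 and 1103 at 7 dpci, against 8.84, 32.6, 6.65 and 26.3 in the non-injured apexes (5.48 ± 0.45, SE, limma adjusted p = 7.52e-07). XLOC_004260 had 419, 345, 302 and 233 at 7 dpci, against 2.53, 13.8, 15.5 and 7.18 in the non-injured apexes (5.12 ± 0.51, SE, limma adjusted p = 4.62e-06), again with no overlap and with replicate 4 the lowest at 7 dpci.

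The remaining 3 of the 10 largest rises varied more within a group. XLOC_034482 had 192, 93.1, 449.8 and 1800 at 7 dpci, against 35.4, 0.988, 0 and 1.20 in the non-injured apexes, so that 1 library of each group stood well above its fellows. Its log2 fold change was 6.62 ± 0.99 (SE from the model of all 20 libraries, limma adjusted p = 0.000421). XLOC_034166 had 813, 2427, 1915 and 624 at 7 dpci, against 184, 6.91, 35.5 and 38.3 in the non-injured apexes (5.03 ± 0.81, SE, limma adjusted p = 0.000878). XLOC_032159 had 353, 334, 237 and 236 at 7 dpci, against 15.2, 0, 18.8 and 11.97 in the non-injured apexes (5.16 ± 0.78, SE, limma adjusted p = 0.000472), where the 0 in non-injured replicate 2 widened the spread.

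**Figure D2:**
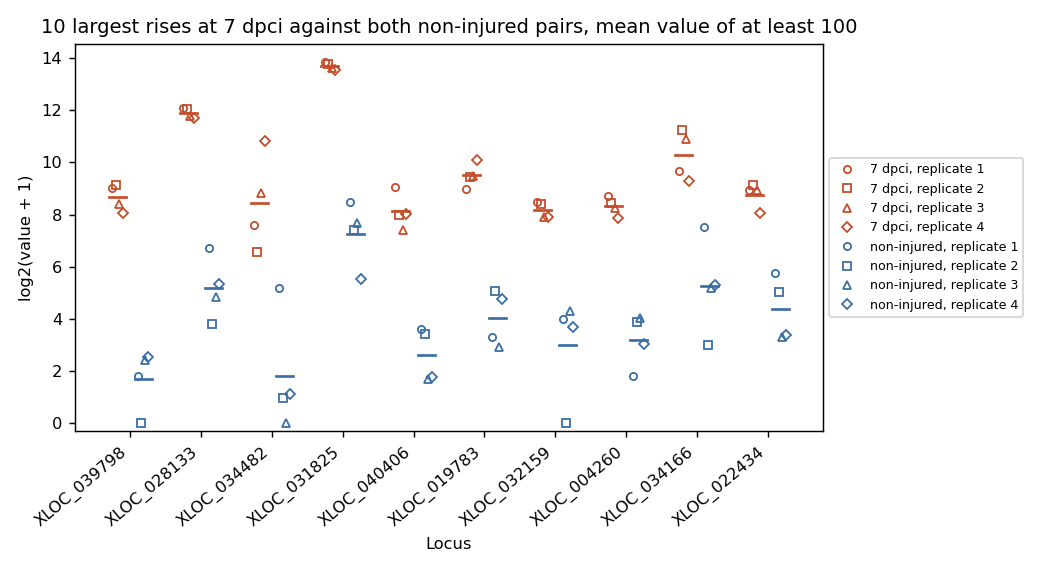
Values of the 10 loci with the largest rises, as log2(value + 1) on the vertical axis, with 7 dpci libraries in red on the left and non-injured libraries in blue on the right of each locus; symbols tell the replicates apart and the bars are group means. In each locus all 4 red points lie above all 4 blue points, from log2 fold changes of 6.96 at the left to 4.39 at the right.

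Of the falls, those at XLOC_047408 and XLOC_013269 came with wide spread among the controls. XLOC_047408 was at 0 in all 4 libraries at 7 dpci, against 49.3, 534, 5.54 and 828 in the non-injured apexes, and XLOC_013269 was at 0 in all 4 at 7 dpci, against 13.9, 6.91, 515 and 415 in the non-injured apexes. With a floor of 3 reads per library in place of the zeros, their mean values were at least 114-fold and at least 76.6-fold lower at 7 dpci. The limma adjusted p was 0.000207 for XLOC_047408 and 0.00113 for XLOC_013269. Both were read in every non-injured library, yet at levels far apart, with replicate 3 the lowest at the first locus and replicates 1 and 2 the lowest at the second.

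XLOC_019564 had the smallest SE of the named falls, in the model of all libraries of the series. It had 115, 213, 173 and 137 at 7 dpci, against 1162, 922, 1776 and 2962 in the non-injured apexes (log2 fold change -3.30 ± 0.30, SE, limma adjusted p = 1.25e-06). XLOC_014085 had 24.0, 24.1, 29.2 and 16.3 at 7 dpci, against 88.4, 253, 284 and 425 in the non-injured apexes (-3.26 ± 0.36, SE, limma adjusted p = 7.72e-06). XLOC_008624 had 20.03, 23.0, 36.8 and 19.2 at 7 dpci, against 98.5, 182, 233 and 189 in the non-injured apexes (-2.76 ± 0.38, SE, limma adjusted p = 1e-04). In these 3 loci the groups were separate, and non-injured replicate 1 was the lowest control in the last 2.

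Replicate 1 was also the lowest control, and by more, at XLOC_040593 and XLOC_023051. XLOC_040593 had 58.1, 50.4, 91.9 and 61.5 at 7 dpci, against 144, 1614, 1949 and 2285 in the non-injured apexes (-3.96 ± 0.62, SE, limma adjusted p = 0.000664). XLOC_023051 had 18.0, 17.5, 4.33 and 10.6 at 7 dpci, against 37.9, 214, 433 and 502 in the non-injured apexes (-4.09 ± 0.58, SE, limma adjusted p = 0.000172). The other 3 of the 10 largest falls were XLOC_023865, XLOC_055731 and XLOC_012381. They had log2 fold changes of -3.70, -3.13 and -2.79 with limma adjusted p-values of 0.00181, 0.00118 and 0.000234, and their groups did not overlap either. The adjusted p-values of XLOC_023865 and XLOC_055731 against non-injured replicates 1 and 2 alone, 0.0477 and 0.04, lay close to the threshold.

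**Figure D3:**
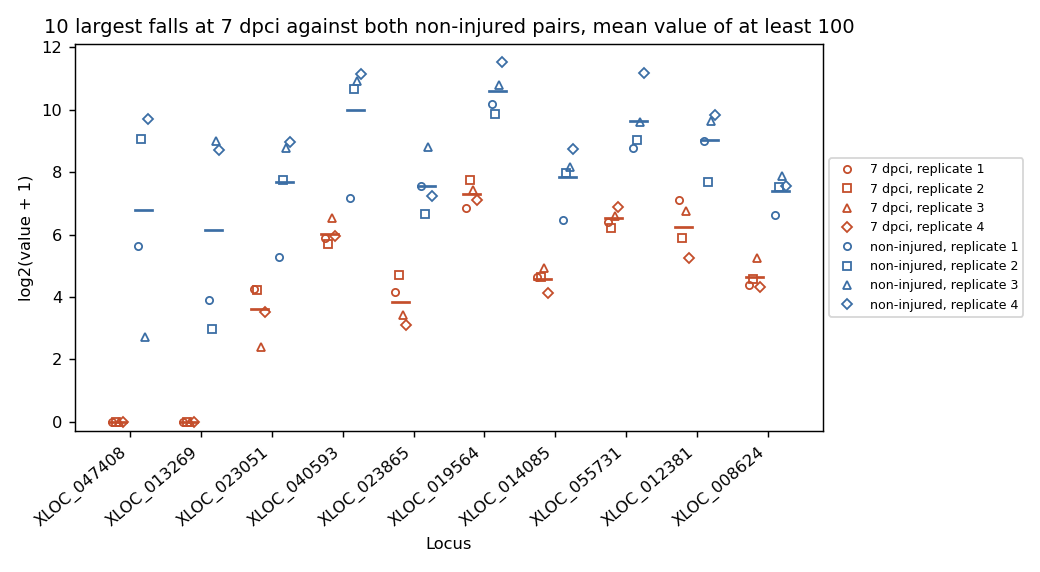
Values of the 10 loci with the largest falls, as log2(value + 1) on the vertical axis, with 7 dpci libraries in red on the left and non-injured libraries in blue on the right of each locus; symbols tell the replicates apart and the bars are group means. All red points lie below all blue points in each locus, and the first 2 loci are at 0 in every 7 dpci library.

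A larger fold change against all 4 controls did not always mean that both pairs were passed. Of the 3 largest rises that missed the threshold against non-injured replicates 1 and 2, XLOC_023695 had 1697, 1147, 724 and 1366 at 7 dpci, against 488, 156, 25.5 and 7.18 in the non-injured apexes, a log2 fold change of 2.09 against replicates 1 and 2 (limma adjusted p = 0.154) and of 6.32 against replicates 3 and 4 (limma adjusted p = 2.61e-05). Its non-injured values spanned a range wider than the gap between the groups. XLOC_042734 had 1361, 738, 623 and 619 at 7 dpci, against 335, 13.8, 5.54 and 19.2 in the non-injured apexes, where replicate 1 alone was high. XLOC_045446 had 18.0, 57.0, 762 and 214 at 7 dpci, against 6.32, 3.95, 0 and 4.79 in the non-injured apexes, and missed against either pair (limma adjusted p = 0.3 and 0.0508).

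The 3 largest falls of this kind showed the same dependence on the controls. XLOC_018299 had 30.1, 29.6, 27.0 and 26.9 at 7 dpci, against 35.4, 928, 1034 and 909.6 in the non-injured apexes, so that non-injured replicate 1 was near the 7 dpci level and the other controls were far above it. XLOC_010393 had 27.1, 36.2, 42.2 and 33.6 at 7 dpci, against 197, 185, 1060 and 812 in the non-injured apexes, with the controls in 2 steps that follow the pairs (limma adjusted p = 0.0663 against replicates 1 and 2, and 0.000149 against replicates 3 and 4). XLOC_014414 had 14.0, 112, 6.49 and 50.9 at 7 dpci, against 192, 227, 769 and 469 in the non-injured apexes (limma adjusted p = 0.257 and 0.0172 against the pairs in the same order).

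Some loci were read in only 1 of the groups. Of the loci set apart, 38 of the 888 higher ones were at 0 in all 4 non-injured libraries. Of the 331 lower ones, 57 were at 0 in all 4 libraries at 7 dpci. Over all 62594 loci tested these numbers were 3249 and 4048. The numbers over all loci also count loci at 0 in all 8 libraries, which could not be set apart. For the higher loci the share is therefore not compared with that of all loci. Among the lower loci such zeros were more frequent than among all loci. A fitted fold change of a locus at 0 throughout 1 group depends on the pseudocount. With the floor of 3 reads in place of the zeros, the medians of the higher and the lower loci set apart were 1.91 and -2.02 on the log2 scale. The loci absent from the non-injured apexes that had the highest means at 7 dpci were uneven there. XLOC_036363 had 0, 63.6, 126.5 and 38.4 at 7 dpci, against 0 in each non-injured library, at least 16.7-fold higher in the mean. Its fitted log2 fold change was 4.58 against either pair. It missed the threshold against replicates 1 and 2 (limma adjusted p = 0.138) and passed against replicates 3 and 4 (limma adjusted p = 0.0442). These p-values differ only through the adjustment, which was made within each test. XLOC_045323 had 174, 2.19, 3.24 and 0.961 at 7 dpci, so that 1 library held nearly all of its reads, and XLOC_003297 had 13.0, 9.86, 61.6 and 14.4 at 7 dpci, against 0 in each non-injured library for both. Of these 3 loci only XLOC_003297 passed against both pairs, at least 7.24-fold higher. Among the loci absent at 7 dpci, XLOC_035456 varied less in the controls than XLOC_047408 and XLOC_013269 did. It had 82.1, 38.5, 154 and 149.6 in the non-injured apexes, with replicates 1 and 2 the lowest. Its mean was at least 34.2-fold lower at 7 dpci (limma adjusted p = 8.46e-10).

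The 57 lower loci set apart and absent at 7 dpci were mostly absent at 14 dpci as well. Of the 57, 38 were at 0 in all 4 libraries at 14 dpci, whereas 54 were above 0 in all 4 libraries at 1.5 dpci and 52 in all 4 at 3 dpci. For 33 of the 57 the separation was complete, with 0 in all 8 libraries of 7 and 14 dpci and reads in each of the other 12 libraries of the series. XLOC_035456 was one of them, with 122 to 218 at 1.5 dpci, 163 to 247 at 3 dpci and 0 at 14 dpci, and so was XLOC_047408, with 316 to 759 at 1.5 dpci, 4.63 to 12.4 at 3 dpci and 0 at 14 dpci. These 33 loci had a median mean value of 11.3 in the non-injured apexes. Some of them carry adjacent or nearby numbers, such as XLOC_048092, XLOC_048093 and XLOC_048094, so the 33 are not known to be independent of each other. The reverse pattern, 0 in the 12 libraries of the non-injured, 1.5 and 3 dpci groups and reads in all 8 libraries of 7 and 14 dpci, was seen in 6 of the 38 loci, the highest being XLOC_006489 with a mean of 20.6 at 7 dpci. To pass as lower, the 57 had to have reads in both non-injured pairs. These patterns were looked for after the values had been seen and are descriptions. They were counted only among the loci set apart and not over all 62594 loci tested, so their shares have no baseline. They follow whole groups, where time after injury cannot be told apart from any other difference between the fish of the groups.

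Placed in the course of the series, the 2 sets moved differently. Relative to the non-injured apexes, the median log2 difference of the 888 higher loci was 1.21 at 1.5 dpci, 1.995 at 3 dpci, 1.99 at 7 dpci and 1.27 at 14 dpci, while that of the 331 lower loci was -0.44, -0.92, -2.32 and -2.14 at the same times. The medians over all loci were 0.09, 0.02, 0 and 0. These comparisons share the non-injured libraries, so the values are given side by side only. The group with the highest mean among the 4 injured ones was 1.5 dpci for 96 of the higher loci, 3 dpci for 454, 7 dpci for 292 and 14 dpci for 46. The loci were chosen at 7 dpci, which favours that group in such a count. The group with the lowest mean was 1.5 dpci for 24 of the lower loci, 3 dpci for 61, 7 dpci for 170 and 14 dpci for 76. Here too the choice at 7 dpci favours that group, and neither count was made over all loci tested. By the medians above, the rises at 7 dpci stood near the level of 3 dpci. Most of the fall of the lower loci lay after 3 dpci. The choice of loci at 7 dpci pushes the medians of that group away from 0. A test of 3 against 7 dpci was not made, so this timing is a description. Tested directly against each other, which needs no control library, 7 and 14 dpci differed at few loci, with 187 higher and 66 lower at 7 dpci (limma, adjusted p below 0.05) of the 62594.

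**Figure D4:**
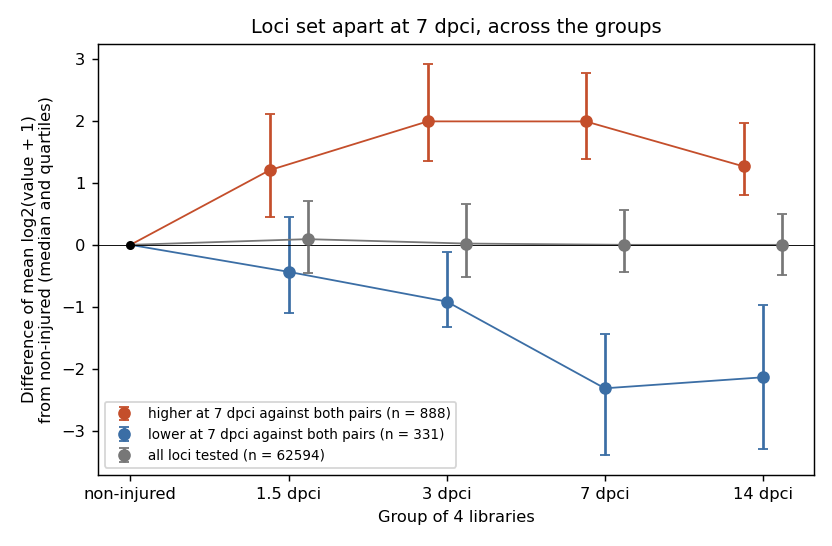
Median and quartiles of the difference in mean log2(value + 1) from the non-injured apexes, on the vertical axis, for the groups along the horizontal axis, each of 4 libraries. The loci higher at 7 dpci (red) have medians of 1.995 at 3 dpci and 1.99 at 7 dpci, the lower loci (blue) are farthest from 0 at 7 dpci with -2.32, and all loci tested (grey) stay near 0. Red and blue loci were chosen at 7 dpci, which pushes their medians there away from 0.

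The courses of single loci through the series differed. XLOC_031825 was at 13978 to 19076 at 1.5 dpci, 25175 to 63623 at 3 dpci and 2276 to 9680 at 14 dpci, so its 7 dpci values of 11808 to 14696 lay below those of 3 dpci and above those of 14 dpci. XLOC_040406 was at 2707 to 6736 at 3 dpci, higher than at any other time. XLOC_022434 was still at 16.4 to 26.0 at 1.5 dpci, within the range of the non-injured libraries, and was at 105.5 to 252 at 3 dpci and 157 to 446 at 14 dpci, so that its 7 dpci mean was the highest of the series. XLOC_019783 was high from the first time point, at 744 to 1742 at 1.5 dpci and 869 to 1317 at 3 dpci, and at 14 dpci was at 36.5 to 129.9. It was the only one of the 30 named loci whose level at 7 dpci differed from that at 14 dpci in the direct test (log2 difference 3.52 ± 0.45, SE, limma adjusted p = 0.00219). XLOC_034482 had 126 to 781 at 1.5 dpci, 0 to 0.917 at 3 dpci and 94.2 to 465 at 14 dpci, a gap at 3 dpci that no other of the 10 largest rises showed. A like gap was seen at XLOC_042734, a named rise that missed against replicates 1 and 2. It had 235 to 1057 at 1.5 dpci, 0.925 to 4.42 at 3 dpci and 7.15 to 554 at 14 dpci.

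Among the falls, XLOC_014085 was at 233 to 542 at 1.5 dpci and 139 to 231 at 3 dpci, near or in the range of the non-injured apexes, and at 19.1 to 24.3 at 14 dpci, beside its 16.3 to 29.2 at 7 dpci. XLOC_040593 had the same shape, with 1143 to 2546 at 1.5 dpci, 816 to 1310 at 3 dpci and 54.2 to 117 at 14 dpci. XLOC_008624 was low already at 3 dpci, at 15.6 to 43.9, and XLOC_012381 was lowest at 1.5 dpci, at 21.6 to 45.3. In the direct test of 7 against 14 dpci none of the 10 largest falls passed (limma adjusted p of 0.76 to 1).

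Cuffmerge, which built the loci, commonly numbers them along the chromosomes. This could not be checked here, but neighbouring numbers were examined for shared change, as a description made after the values had been seen. Of the 888 higher loci, 226 (25.5%) had an adjacent number that was also in the set, against 2.62% of all loci tested, and of the 331 lower loci 81 (24.5%) did so, against 0.983% of all. Where members no more than 3 numbers apart were joined, the higher loci formed 43 stretches of 3 or more members holding 193 loci, and the lower loci 12 such stretches holding 60. In all, 5 stretches held 8 or more members, 3 of higher and 2 of lower loci. Whether neighbouring numbers are pieces of a single transcript was not tested, and the loci of a stretch are not independent of each other.

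The longest stretch ran from XLOC_001893 to XLOC_001921, 29 numbers of which 23 passed against both pairs and 28 passed the test of all 4 controls, none in the opposite direction. Its summed values were 4067, 5071, 5195 and 4004 at 7 dpci, against 1618, 1427, 1884 and 1787 in the non-injured apexes, a ratio of means of 2.73. The log2 fold changes of its loci lay between 0.73 and 2.24, with a median of 1.48. A pair of stretches close together showed larger changes. Between them, XLOC_009544, XLOC_009545 and XLOC_009546 had log2 fold changes of 2.34, 1.81 and 2.36 but did not pass against both pairs. The joining rule thus sets where 1 stretch ends and the next begins. From XLOC_009526 to XLOC_009543 the sums were 559, 673, 379.5 and 224 at 7 dpci, against 92.2, 33.6, 25.5 and 43.1 in the non-injured apexes (ratio 9.44, 14 of 18 loci set apart). From XLOC_009547 to XLOC_009563 they were 265, 308, 257 and 128 at 7 dpci, against 26.5, 10.9, 14.4 and 33.5 in the non-injured apexes (ratio 11.2, 11 of 17 loci set apart). In both, 7 dpci replicate 4 had the lowest sum of its group.

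Loci that fell together formed the other 2 stretches. From XLOC_000206 to XLOC_000218 the sums were 2475, 2053, 3644 and 1806 at 7 dpci, against 7160, 5979, 8471 and 8235 in the non-injured apexes, a ratio of 0.334, with 10 of the 13 loci set apart and all 13 past the threshold against the 4 controls. From XLOC_010222 to XLOC_010235 they were 3084, 3194, 4975 and 3086 at 7 dpci, against 7094, 8007, 15807 and 10099 in the non-injured apexes, a ratio of 0.350, with 9 of the 14 loci set apart. Its first locus, XLOC_010222, held 47.7% of the sum at 7 dpci. The end of this stretch also follows from the joining rule. Lower values ran on to XLOC_010245, with log2 fold changes from -1.29 at XLOC_010237 to -3.33 at XLOC_010245. The stretches were joined from loci chosen on these 8 libraries, so the separation of their summed values is no further support.

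**Figure D5:**
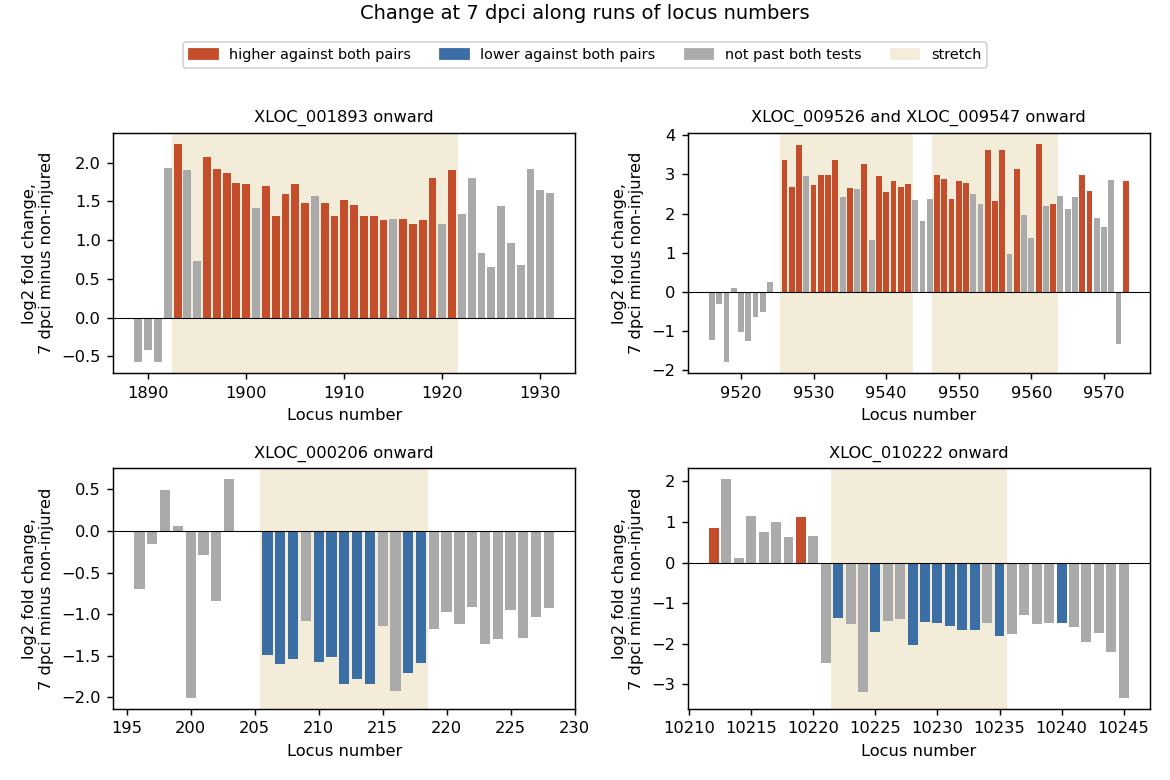
Log2 fold change at 7 dpci over non-injured apexes (vertical axes) by locus number (horizontal axes) for the 5 longest stretches and the tested loci up to 10 numbers to either side; shading marks each stretch, red and blue bars passed against both pairs and grey bars did not. Within the shaded stretches the bars point one way, with medians of 1.48, 2.80 and 2.51 in the upper panels and -1.58 and -1.54 in the lower panels.

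The stretches also differed in timing. The sums from XLOC_001893 to XLOC_001921 were 3592 to 4554 at 1.5 dpci, 3510 to 4620 at 3 dpci and 2013 to 3216 at 14 dpci, so the 7 dpci level was close to that of the earlier times. Those from XLOC_009526 to XLOC_009543 were 51.2 to 113 at 1.5 dpci, 148 to 211 at 3 dpci and 131.5 to 252 at 14 dpci, below all but 1 of the sums at 7 dpci. The lower stretch from XLOC_010222 to XLOC_010235 was at 2664 to 4106 at 1.5 dpci, 2627 to 5109 at 3 dpci and 3077 to 4264 at 14 dpci, reduced to a like level at each injured time point.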

How the data were processed

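RNA from pooled ventricular apexes was prepared and sequenced as stranded total RNA libraries by a service provider. Reads were mapped to GRCz10 with Ensembl release 90 annotation and processed with the Cufflinks, Cuffmerge and Cuffdiff programs. The aligner's settings and the program versions are not given in the sources used here. The deposited values are a signal, reads per locus divided by the authors' size factor for the library (median of the geometric mean), without the length division that the FPKM named in the paper would imply. Whole reads were recovered from the steps of low values (tolerance 0.1 read, values of up to 20 reads). Their number sets the counting error alone. Columns of gene names and positions, which are out of order, were not used.

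Values were tested as log2(value + 1) in R 4.3.3 with limma 3.58.1 (trend and robust eBayes, statmod 1.5.0) over 62594 loci above 0 in at least 1 library, in a model of 5 groups and 20 libraries, with the Benjamini-Hochberg method and a threshold of 0.05. This scale understates changes of low loci. A second model split the controls into replicates 1 and 2, and 3 and 4. Library measures were compared by exact two-sided permutation (scipy 1.17.1). Scripts were tested on simulated data. Replicates differed beyond sampling noise (chi-square per degree of freedom 13.6 to 66.9), so each counts once.

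Named loci are the 10 largest rises and falls that passed against both pairs with a mean of at least 100 over the 8 libraries and no overlap, the 3 largest of each with the same mean and no overlap that missed against replicates 1 and 2, and, among loci past the threshold, the 3 highest of those at 0 throughout either group. The comparison, the pairs and the naming rules were chosen with earlier results of these data known. Alternatives were TMM and quantile scaling, a minimum value of 10 in 4 libraries, pseudocounts of 0.1 and 5, a 2-fold minimum, the 8 libraries alone, a replicate block, limma-voom and edgeR 4.0.16 on the recovered reads, and the omission of single libraries.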

Additional observations from a re-analysis of the deposited data

Results flagged for a closer look

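Among the 66 groups of 4 libraries examined for the named loci and the library measures, 3 had 1 library far from the other 3, where chance gives about 1 in 20 groups, or 3.3. Loci were examined on the log2(value + 1) scale and library measures on their own scale. Groups at 0 in all 4 libraries are counted in the 66 but could not be flagged, so 3.3 is an upper figure. At XLOC_032159 non-injured replicate 2 was at 0, against 11.97 to 18.8 in the other non-injured libraries, a gap of 0.858 of the group's range. At XLOC_040593 non-injured replicate 1 had 144, against 1614 to 2285 in the others, a gap of 0.874 of the range. At XLOC_018299 non-injured replicate 1 had 35.4, against 909.6 to 1034 in the others, a gap of 0.962 of the range, and the fall at 7 dpci did not pass against replicates 1 and 2. XLOC_019783 stood out for another reason, a difference between 7 and 14 dpci of 3.52 on the log2 scale (limma adjusted p = 0.00219), higher in all 4 libraries at 7 dpci.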

How the results depend on the processing

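The counts moved with the libraries in the model, with the tool and with single libraries of either group. With only the 8 libraries fitted, which leaves fewer residual degrees of freedom and 61225 loci to test, 1735 loci were higher and 1316 lower, and 347 and 70 passed against both pairs. With the replicate number as a block 550 and 170 passed against both pairs; replicate numbers did not pair the libraries (same-number correlations of -0.15 to 0.05, 0 of 4 best with their own number). On recovered reads 528 higher loci passed against both pairs with limma-voom and 586 with edgeR, and the cause was not tested. With 1 library left out, higher loci numbered 2325 to 5499, lower loci 1651 to 4355, and those passing against both pairs 514 to 863 higher and 185 to 389 lower. Other scalings, filters, pseudocounts and a 2-fold minimum kept each count within 1.5 times. Of the values of named loci against all 4 controls, recomputed under the alternatives, 476 kept their direction and side of the threshold. The other 33 lost the threshold, none of them at the 20 largest rises and falls. The tests of single named loci against the pairs were not part of this count. Low loci are limited by depth, since a floor of 3 reads corresponds to a value of 3.10 at 7 dpci and 3.42 in the non-injured apexes.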
